A study of Homo sapiens with 6 samples.

Results

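Genes of the hyaluronan system were followed in LX-2 cells after silencing of OGT, which transfers N-acetylglucosamine onto serines and threonines of proteins inside the cell (O-GlcNAcylation). The system was taken as 9 genes matched by symbol, namely the hyaluronan synthases HAS1, HAS2 and HAS3, the substrate enzyme UGDH, the hyaluronidases HYAL1, HYAL2 and HYAL3, and the receptors CD44 and HMMR. Of these 9 genes, 8 were measured among 16907 gene symbols, and all 8 were among the 14853 genes tested. The expression of HAS1 was not analysed here. Every measured member reached a mean of at least 1 count per 1000000 (CPM) over the libraries, HAS3 being the least abundant.

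LX-2 is a human hepatic stellate cell line, so all libraries represent 1 line, grown in medium with 5% serum. Cells were transfected for 72 h with siRNA at 20 nM, either a non-targeting control (siControl) or a reagent against OGT (siOGT), and polyadenylated RNA was sequenced from 3 biological replicates per group. Per the study's resource list, the control was an Ambion Silencer Select negative control and the OGT reagent a Horizon ON-TARGETplus pool, so the groups also differed in supplier and design of the siRNA, and that difference cannot be told apart from the silencing of OGT. Libraries with the same replicate number were treated as a pair.

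Libraries held between 25996770 and 27966801 expected counts in total. OGT RNA was 177.2, 137.1 and 121.2 CPM in siControl replicates 1 to 3 and 39.95, 26.97 and 29.17 CPM in siOGT, which left 22.5%, 19.7% and 24.1% of the paired control. Of 11 stellate or myofibroblast markers, 8 reached a mean of 1 CPM, led by VIM and COL1A1, whereas LRAT, DES and HAND2 did not. Their summed level was 6745 to 8188 CPM in siControl and 6021 to 7156 CPM in siOGT, and of 10 tested, 5 were called lower by edgeR at an adjusted p of at most 0.05 (log2 fold changes from -0.64 for COL3A1 to -0.32 for PDGFRB) and TAGLN higher (0.37). Summed markers of hepatocytes, endothelial cells and macrophages stayed at or under 9.59 CPM in every library, VWF being called lower (2.60 ± 1.37 to 1.35 ± 0.671 CPM, SD, n = 3). Those of cholangiocytes, SOX9 making up most of the sum, were 88.6 to 128 CPM in siControl and 91.4 to 129 CPM in siOGT. The part of these markers in the results was not tested. Because the RNA came from whole cultures, fewer cells of a kind and less RNA per cell cannot be told apart.

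Hyaluronan is a long, unbranched polysaccharide of alternating glucuronic acid and N-acetylglucosamine that synthases in the plasma membrane extrude directly into the matrix. UGDH oxidises UDP-glucose to UDP-glucuronic acid, and the hexosamine pathway supplies UDP-N-acetylglucosamine, the same sugar donor that OGT uses. Hyaluronidases and other depolymerising proteins cut the chain, and CD44 and HMMR bind it. In injured liver, activated stellate cells are a known source of hyaluronan, and serum hyaluronan is used as a marker of fibrosis.

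UGDH was lower in siOGT, HAS2 was higher on average but not in every pair, and the other 6 members did not pass the test. Of 10 alternative fits, 9 also called UGDH and 5 called HAS2. A gene was called where the adjusted p of edgeR's quasi-likelihood test, with the replicate number as a block, was at most 0.05. That is 2 of 8 members called, or 25.0%, beside 25.4% of all genes tested. In each direction 1 member was called, beside 12.7% of all genes called higher and 12.7% called lower. The share of members that changed was thus near the background. The median log2 fold change was 0.057 over the 8 members and 0.0068 over all genes tested.

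**Figure D1:**
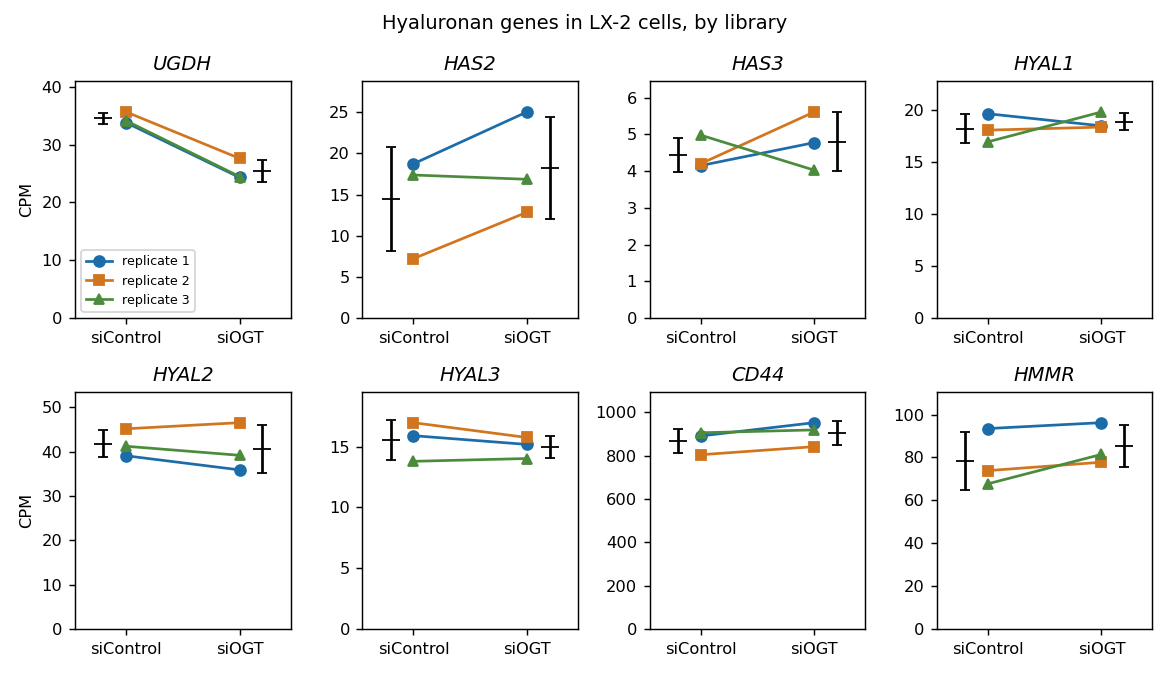
Expression (CPM, from 0) of the 8 members in each library, with lines joining siControl and siOGT of one replicate and black bars giving mean and SD of 3 libraries. UGDH fell in every pair from 34.51 to 25.47 CPM on average, while the groups overlapped for each of the other 7 genes. How common such separation was among all genes tested was not computed.

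UGDH, which makes the UDP-glucuronic acid used for hyaluronan and for other glycosaminoglycans, lies at chr4:39498755-39528311 on the minus strand (hg38). Its level was 33.78, 35.63 and 34.11 CPM in siControl replicates 1 to 3 and 24.32, 27.61 and 24.47 CPM in siOGT. Every siOGT library was lower than every siControl library, and the siControl libraries lay close together. Silenced cells kept 72.0%, 77.5% and 71.7% of the paired control. The mean fell from 34.51 ± 0.988 to 25.47 ± 1.86 CPM (SD, n = 3), a log2 fold change of -0.44 (SE 0.075, 95% confidence interval -0.60 to -0.28, adjusted p = 4.088e-04, edgeR). The log2 fold change stayed between -0.48 and -0.42 under 10 alternatives, 9 of which called the gene. Without the replicate block, edgeR gave an adjusted p of 0.0712, whereas DESeq2 gave 0.00802 without the block and 9.146e-04 with it. UGDH shares 513 exon bases with the antisense RNA UGDH-AS1, which was not analysed here. Counting used the strand.

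The bases upstream of the UGDH start held GGAATG, the reverse complement of CATTCC, which is the core bound by TEAD factors. The stretch below is shown because UGDH was the member lower in every pair. It lies at chr4:39527486-39527515 (RefSeq on GRCh38.p14, minus strand), within annotated exons of GENCODE transcripts of the gene that start farther upstream, with capitals marking the match.
UGDH: cctggctgcgggGGAATGaagcctccgcct
On either strand, CATTCC was found in the 250 bases upstream of 4 of 8 members with a window (UGDH, HYAL2, HYAL3 and HMMR), and in 11.9% of all 35116 windows. HAS1 is among these 8, whereas HAS2 had no window and was not searched for any motif. A member was counted if any of its windows held the letters, whereas the share of all windows counts each window. HYAL2, HYAL3 and HMMR were not called, so the letters were present upstream of UGDH, the only called member searched, and of uncalled members alike. The match describes the letters and not a bound site.

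Among 11 other genes of UDP-sugar supply, 5 were called (3 higher and 2 lower), or 45.5% beside 25.4% of all genes, and the list's median log2 fold change was -0.093. UAP1L1, a paralogue of the UDP-N-acetylglucosamine pyrophosphorylase UAP1, rose from 58.13, 35.75 and 55.14 CPM in siControl to 119.6, 67.14 and 105.5 CPM in siOGT. Its log2 fold change was 0.96 (SE 0.067, adjusted p = 5.267e-08, edgeR), and every siOGT library lay above every siControl library. UAP1 itself stood at 68.84 ± 2.15 CPM in controls and at 76.65 ± 3.38 CPM after silencing (SD, n = 3), a log2 fold change of 0.15 that was not called (adjusted p = 0.104, edgeR).

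The other called genes of supply changed by less, and they are named after their values were seen. PGM1, which interconverts glucose phosphates, was higher with a log2 fold change of 0.24 (adjusted p = 0.0268, edgeR), and so was SLC35D1, a transporter of UDP-glucuronic acid into the endoplasmic reticulum, at 0.30 (adjusted p = 0.0177). UGP2, which makes UDP-glucose and so precedes UGDH, was lower by -0.21 on the log2 scale (adjusted p = 0.0423), and UXS1, which converts UDP-glucuronic acid to UDP-xylose, by -0.24 (adjusted p = 0.0244). These 4 calls were lost with DESeq2 and the block, which called 1 of the 11 genes, UAP1L1. Without replicate 1 the count was also 1, and without replicate 2 it was 3. The 6 uncalled genes, GFPT1 and GFPT2 of the hexosamine pathway among them, had log2 fold changes from -0.18 to 0.15.

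**Figure D2:**
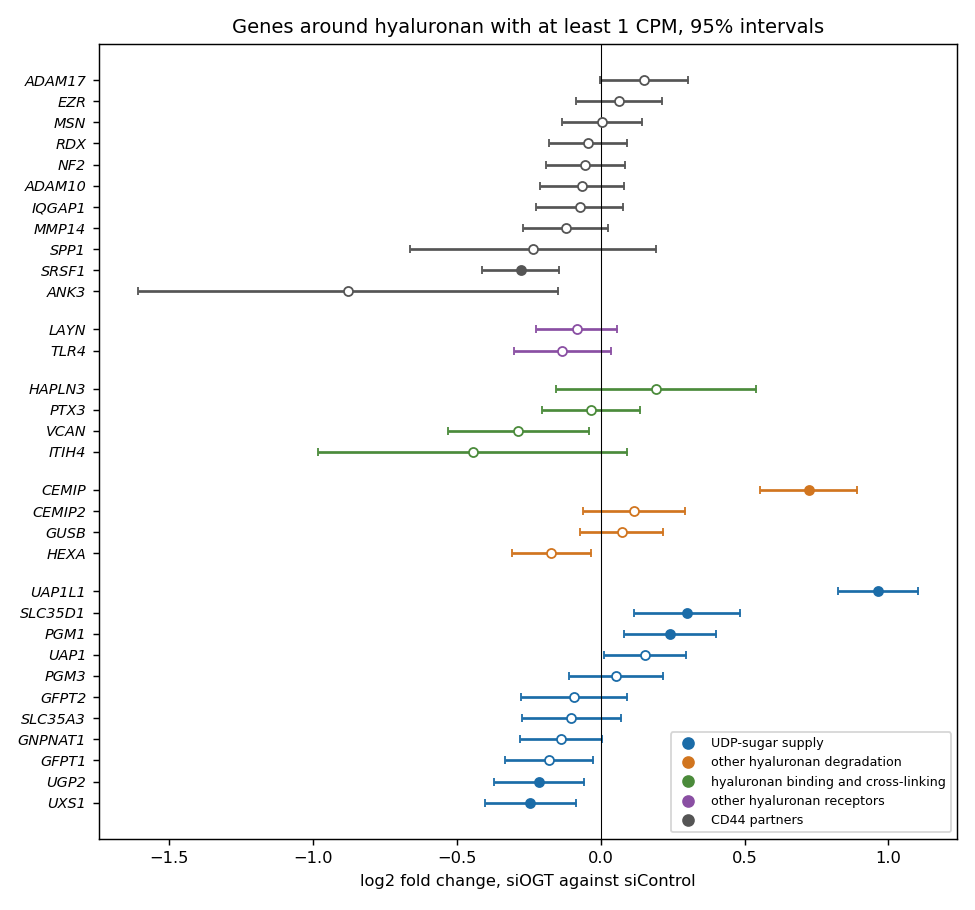
Log2 fold change of siOGT against siControl with 95% intervals for genes of 5 lists around hyaluronan and CD44 that had a mean of at least 1 CPM, 1 uncalled gene left out. Filled points were called, and UAP1L1 (0.96) and CEMIP (0.72) lay farthest above 0 among them.

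HAS2, the synthase that makes long hyaluronan chains and the main isoform of many mesenchymal cells, was higher in siOGT in 2 of 3 pairs. Its level was 18.74, 7.228 and 17.38 CPM in siControl replicates 1 to 3 and 25.03, 12.86 and 16.86 CPM in siOGT. The groups overlapped, and replicate 2 was lowest in both. Relative to the paired control, the level was 133.5%, 177.9% and 97.0%. The means were 14.45 ± 6.29 CPM in controls and 18.25 ± 6.20 CPM after silencing (SD, n = 3), so the difference of the means was smaller than the spread within either group.

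With the replicate block, HAS2 had a log2 fold change of 0.37 (SE 0.12, 95% confidence interval 0.11 to 0.63, adjusted p = 0.0328, edgeR). The call rested on single libraries and on the model. Without replicate 2 the log2 fold change was 0.19 (adjusted p = 0.237), without replicate 1 it was 0.35 (adjusted p = 0.145), and without replicate 3 it was 0.58 (adjusted p = 0.00236). DESeq2 with the block gave an adjusted p of 0.0931, and without the block edgeR gave 0.641 and DESeq2 0.765. HAS2 lies at chr8:121612116-121641440 on the minus strand (hg38) and shares 251 exon bases with the antisense RNA HAS2-AS1, which was not analysed here.

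HAS3, a synthase known for shorter chains, was the lowest member at 4.152, 4.203 and 4.98 CPM in siControl and 4.776, 5.61 and 4.028 CPM in siOGT. It was higher in 2 of 3 pairs and lower in replicate 3, and the groups overlapped. Its log2 fold change of 0.11 was not called (95% confidence interval -0.25 to 0.46, adjusted p = 0.699, edgeR). With 107 to 151 counts per library, HAS3 had the widest interval of the members, and the interval includes the estimate of HAS2. HAS3 lies at chr16:69105653-69118719 on the plus strand (hg38), where 365 of its exon bases are also covered, on the opposite strand, by CHTF8, which was not called (log2 fold change 0.072, adjusted p = 0.497), and by DERPC, which was not analysed here.

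Per kilobase of exon, HAS2 RNA was more abundant than HAS3 RNA in every library. The ratio of HAS2 to HAS3, in CPM per kilobase, was 5.54, 2.11 and 4.28 in siControl replicates 1 to 3 and 6.43, 2.81 and 5.13 in siOGT. HAS2 was therefore the leading measured synthase transcript in both groups.

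**Figure D3:**
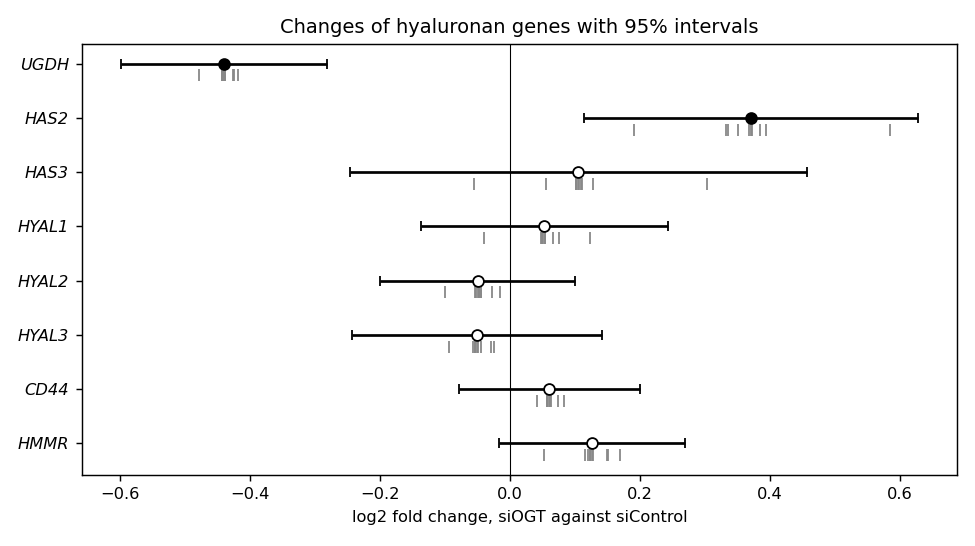
Log2 fold change of siOGT against siControl for the 8 members, with 95% confidence intervals (filled points were called) and grey ticks for the same value under each of the 10 alternatives shared by all members. The ticks of UGDH stay between -0.48 and -0.42, and those of HAS2 spread from 0.19 to 0.58.

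HYAL1, HYAL2 and HYAL3 stand side by side on the minus strand of chromosome 3, and none was called. HYAL1, a lysosomal enzyme that cuts hyaluronan to small fragments, was 19.6, 18.03 and 16.91 CPM in siControl and 18.44, 18.32 and 19.77 CPM in siOGT. The siOGT values fell within or just above the siControl range, and the log2 fold change was 0.053 (95% confidence interval -0.14 to 0.24, adjusted p = 0.719, edgeR). HYAL1 lies at chr3:50299890-50312381 (hg38). Its expected counts were whole, within 0.02, in 1 of 6 libraries, so some of its reads were probably divided with another feature, which was not identified here.

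HYAL2, a hyaluronidase anchored at the cell surface, was 39.05, 45.14 and 41.2 CPM in siControl and 35.87, 46.52 and 39.16 CPM in siOGT. The groups overlapped, and the log2 fold change was -0.050 (95% confidence interval -0.20 to 0.10, adjusted p = 0.662, edgeR). HYAL2 lies at chr3:50317790-50322782 (hg38) and shares 509 of its 4421 exon bases with TUSC2 on the same strand. Its expected counts were nevertheless whole in all 6 libraries, so no division of its reads with another gene was seen. TUSC2 was not called either (log2 fold change 0.13, adjusted p = 0.150, edgeR).

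HYAL3, whose own role in hyaluronan breakdown is less clear, was 15.9, 16.97 and 13.79 CPM in siControl and 15.18, 15.75 and 14.02 CPM in siOGT. It was lower in 2 of 3 pairs, and the log2 fold change was -0.051 (95% confidence interval -0.24 to 0.14, adjusted p = 0.736, edgeR). This value depends on how reads were divided between genes. HYAL3 (chr3:50292831-50299405, hg38) shares 232 of its 1967 exon bases with NAA80 (chr3:50296402-50299416), which encodes the enzyme that acetylates the amino end of actin, and 43 bases with IFRD2, all on the same strand.

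RefSeq gives HYAL3 (for the first of its starts) and NAA80 the same start, so their upstream windows of 250 bases are identical (chr3:50299406-50299655). The stretch outside annotated exons is shown because the genes share it, at chr3:50299417-50299655 (GRCh38.p14, minus strand), and no letters are in capitals because none of the 4 motifs searched was found in them.
HYAL3 and NAA80: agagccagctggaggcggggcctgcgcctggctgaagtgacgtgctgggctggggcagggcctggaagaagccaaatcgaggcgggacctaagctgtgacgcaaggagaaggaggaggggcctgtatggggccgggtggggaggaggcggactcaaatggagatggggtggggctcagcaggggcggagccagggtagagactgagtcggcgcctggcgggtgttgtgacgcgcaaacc
The 4 motifs were CATTCC (TEAD), TTTGAA (cell cycle homology region), CACGTG (E-box) and TGACTCA (AP-1), each on either strand. Of all windows, 11.9%, 13.3%, 6.34% and 4.2% held them, in that order. Among members, CACGTG was found upstream of HAS3, and TGACTCA upstream of 0 of the 8 with a window.

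HYAL3 and NAA80 each had an expected count that was whole, within 0.02, in 0 of 6 libraries, yet their sum was whole in 6 of 6. Reads were thus divided between the pair of genes. The sum was 1028, 1269 and 1052 expected counts in siControl and 878, 1042 and 929 in siOGT, or 38.45, 49.85 and 37.69 CPM against 32.5, 38.72 and 34.65 CPM. The sum was lower in siOGT in every pair. Fitted as 1 feature, an alternative added after seeing the data, it had a log2 fold change of -0.24 (adjusted p = 0.0219, edgeR). The sum was fitted only with the main settings, the replicate block included.

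NAA80 alone was 22.56, 32.84 and 23.9 CPM in siControl and 17.33, 22.96 and 20.62 CPM in siOGT, with a log2 fold change of -0.37 (adjusted p = 0.00376, edgeR). Without the block its call was lost by edgeR (adjusted p = 0.259) and by DESeq2 (adjusted p = 0.201). HYAL3 received 41.4%, 34.1% and 36.6% of the sum in siControl and 46.7%, 40.7% and 40.4% in siOGT. Its share was thus higher in silenced cells in every pair, and the split itself was not tested. A change of HYAL3 apart from NAA80 is uncertain in these counts. IFRD2 was called higher with a log2 fold change of 0.26 (adjusted p = 0.0112, edgeR).

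**Figure D4:**
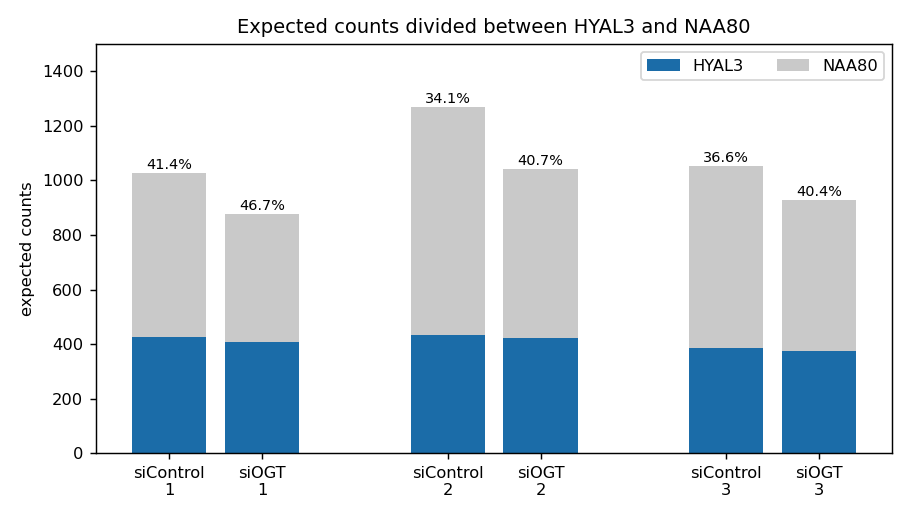
Expected counts (from 0) assigned to HYAL3 and NAA80 in each library, stacked, with replicates side by side and the share of HYAL3 printed above each bar. In every pair the siOGT bar is shorter, and the HYAL3 share is higher (46.7% against 41.4% in replicate 1).

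Of 5 other genes of hyaluronan breakdown, 1 was called, or 20.0% beside 25.4% of all genes, with a median log2 fold change of 0.12. It was CEMIP, a hyaluronan-binding protein needed by fibroblasts to depolymerise the chain. CEMIP (chr15:80779343-80951776, plus strand, hg38) was 39.95, 24.71 and 27.09 CPM in siControl and 60.01, 47.82 and 42.33 CPM in siOGT. Every siOGT library lay above every siControl library, and silenced cells held 150.2%, 193.5% and 156.3% of the paired control. The log2 fold change was 0.72 (SE 0.080, adjusted p = 7.792e-06, edgeR). It stayed between 0.61 and 0.80 under 10 alternatives, and the call was lost in 1 of them, edgeR without the block (adjusted p = 0.103).

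CEMIP2, a cell surface relative of CEMIP, and the lysosomal enzymes HEXA and GUSB, which trim the fragments, were not called, with log2 fold changes of 0.12, -0.17 and 0.073. In siOGT the higher gene of breakdown was thus CEMIP, while the intervals of HYAL1 and HYAL2 lay between -0.20 and 0.24 on the log2 scale.

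CD44, the main surface receptor for hyaluronan, was the most abundant member. Its level was 891.5, 804.8 and 906.2 CPM in siControl and 952.9, 842.1 and 919.5 CPM in siOGT. It was higher in siOGT in 3 of 3 pairs, at 106.9%, 104.6% and 101.5% of the paired control, but the groups overlapped. The log2 fold change was 0.061 and was not called (95% confidence interval -0.078 to 0.20, adjusted p = 0.547, edgeR). CD44 lies at chr11:35138882-35232402 on the plus strand (hg38) and has 38 annotated transcripts. Counts were summed per gene, so variant exons of CD44 were not analysed here, nor were the overlapping antisense RNAs CD44-AS1 and CD44-DT. Each library held 20488 to 25739 counts of CD44.

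Of 13 tested genes known to act with CD44 (linkers to the cytoskeleton, sheddases, another ligand and splicing factors), 1 was called, or 7.69% beside 25.4% of all genes, and the median log2 fold change was -0.053. SRSF1, a splicing factor named after its values were seen, fell from 162.4 ± 10.4 to 133.9 ± 7.96 CPM (SD, n = 3), a log2 fold change of -0.28 (adjusted p = 0.00392, edgeR). Without replicate 1 its adjusted p was 0.0569, and it was also lost without the block. The linkers EZR, RDX and MSN had log2 fold changes of 0.064, -0.044 and 0.0052 and were not called. Among 10 uncalled partners with at least 1 CPM in siControl, log2 fold changes ran from -0.88 to 0.15. The lowest was ANK3, another linker, lower in 3 of 3 pairs (adjusted p = 0.0729, edgeR). ANK3 was scarce, at 1.48 ± 0.66 CPM in controls and 0.79 ± 0.34 CPM after silencing (SD, n = 3).

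Of 3 other receptors tested, 0 were called by edgeR or by DESeq2, and 0 had an unadjusted p under 0.05. LAYN stood at 103.9 ± 14.03 CPM in controls and at 98.89 ± 20.9 CPM after silencing, and TLR4 at 43.5 ± 2.46 and 39.74 ± 3.66 CPM (SD, n = 3), while STAB1 stayed under 1 CPM. Of 10 genes that bind or cross-link hyaluronan in the matrix, 0 were called by edgeR or by DESeq2. By edgeR, 2 of the 10 had an unadjusted p under 0.05, beside 5456 of all 14853 genes tested. These 2 were VCAN, at 9.32 ± 3.18 CPM in siControl and 7.61 ± 2.36 CPM in siOGT, and NCAN, which stayed under 1 CPM. PTX3, a secreted protein that helps to cross-link hyaluronan matrix, was 265.2 ± 57.7 and 255.5 ± 15.04 CPM (SD, n = 3). Together, the 5 lists of supply, breakdown, binding, reception and CD44 partners had 42 genes tested and 7 called, or 16.7% (4 higher and 3 lower), beside 25.4% of all genes.

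HMMR binds hyaluronan and also works inside the cell at the mitotic spindle, where it holds the partner FAM83D and takes part in activation of AURKA. Its level was 93.48, 73.85 and 67.71 CPM in siControl and 96.22, 77.77 and 81.42 CPM in siOGT. HMMR was higher in siOGT in 3 of 3 pairs, yet the groups overlapped, and the log2 fold change of 0.13 was not called (SE 0.068, 95% confidence interval -0.016 to 0.27, adjusted p = 0.188, edgeR). HMMR lies at chr5:163460203-163491941 on the plus strand (hg38) and shares 113 exon bases with HMMR-AS1, which was not analysed here.

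Genes that share the mitotic setting of HMMR were mostly lower in siOGT. Of 14 mitotic genes, 12 were called lower and 0 higher, or 85.7% called lower beside 12.7% of all genes, with a median log2 fold change of -0.33. The list was chosen with earlier results of these data known, so its share is not independent of them. FAM83D fell from 151.6 ± 5.37 to 113.6 ± 5.78 CPM (SD, n = 3), a log2 fold change of -0.42 (adjusted p = 2.393e-04, edgeR). AURKA, the spindle kinase, fell from 230.3 ± 17.8 to 170.2 ± 7.61 CPM, or -0.43 on the log2 scale (adjusted p = 2.752e-04). TOP2A, NUSAP1, CDK1 and CENPF had log2 fold changes of -0.40, -0.37, -0.37 and -0.40. PLK1 (-0.017) and BRCA1 (-0.10) were not called.

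Within each pair, the log2 ratio of HMMR lay above that of all 14 mitotic genes. It was 0.042, 0.074 and 0.27 in pairs 1 to 3, while the medians of the mitotic genes were -0.37, -0.29 and -0.29. The ratio was below 0 for 14, 14 and 13 of the 14 genes. The difference between HMMR and these genes was not tested. By edgeR without the block, 0 of the 14 were called, beside 130 of all 14853 genes tested. In that fit 11 had an unadjusted p under 0.05, beside 2691 of all genes. DESeq2 called 12 with the block and 8 without it, beside 2415 and 849 of all genes. Without replicate 1, edgeR called 7, beside 1803 of all genes.

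**Figure D5:**
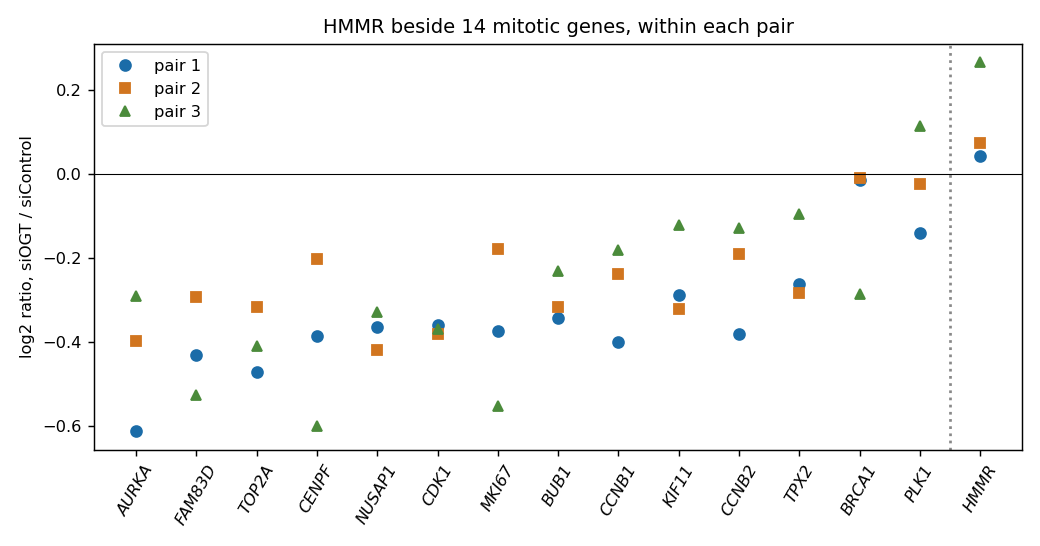
Log2 ratio of siOGT to siControl within each replicate pair (prior count 2) for 14 mitotic genes and, right of the dotted line, HMMR. HMMR is above 0 in all 3 pairs (0.042, 0.074 and 0.27) and above every mitotic gene in the same pair.

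The letters TTTGAA, the cell cycle homology region found near the start of many genes expressed in mitosis, were present in the 250 bases before the RefSeq start of HMMR, in 2 adjacent copies, and of 6 of 11 mitotic genes with a window, beside 13.3% of all windows. Among members with a window, HMMR and HAS1 held them. A gene was counted once if any of its windows held the letters, whereas the share of all windows counts each window. HMMR is shown beside CDK1 and TOP2A, which fell, and PLK1, which was not called and is shown after its values were seen. Capitals mark TTTGAA or its reverse complement TTCAAA, and all are RefSeq sequences on GRCh38.p14. The HMMR stretch lies before the RefSeq start but inside the gene span given above, within an annotated exon of a GENCODE transcript that starts farther upstream.
HMMR: gtggggagaTTTGAATTTGAAaccggtagg
CDK1: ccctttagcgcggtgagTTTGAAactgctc
TOP2A: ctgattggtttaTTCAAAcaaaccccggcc
PLK1: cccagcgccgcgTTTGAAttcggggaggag
They lie at chr5:163460595-163460624 (plus strand), chr10:60778448-60778477 (plus), chr17:40418030-40418059 (minus) and chr16:23678848-23678877 (plus). The match nearest the start began 22 bases before it in HMMR, 13 in CDK1, 151 in TOP2A and 29 in PLK1. The windows of TOP2A and MKI67 and the CDK1 window shown also held 2 copies each. In CDK1 and TOP2A the copy farther from the start lies outside the stretch shown. The same letters thus stood upstream of genes that fell and of genes that were not called. A match here is not a bound site.

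Levels of the members were compared per kilobase of exon, since CPM grows with transcript length. In siControl, CD44 stood at 86.8 ± 5.48 CPM per kilobase and HMMR at 19.9 ± 3.42. HYAL2 followed at 9.45 ± 0.698, UGDH at 8.57 ± 0.245 and HYAL3 at 7.91 ± 0.822. HYAL1 stood at 5.89 ± 0.438, HAS2 at 3.41 ± 1.48 and HAS3 at 0.855 ± 0.0892 (SD, n = 3). The libraries of UGDH overlapped those of HYAL2 and of HYAL3, so their order is not set beyond the spread, and dividing by the longest transcript instead put UGDH (11.4) above HYAL2 (10.3). The other neighbours did not overlap in siControl.

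In siOGT the levels per kilobase were 90.6 for CD44, 21.7 for HMMR, 9.17 for HYAL2, 7.62 for HYAL3, 6.33 for UGDH, 6.11 for HYAL1, 4.30 for HAS2 and 0.924 for HAS3. The receptors were therefore more abundant than every enzyme of synthesis or breakdown among the members in both groups, and the synthases had the lowest levels.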

How the data were processed

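RNA-seq was analysed in 3 siControl and 3 siOGT libraries of LX-2 cells, grouped by their labels. The authors selected RNA with oligo-dT, sequenced both ends of fragments, mapped them to hg38 with Bowtie2 2.3.5.1 and deposited RSEM 1.3.1 expected counts per gene, counted by strand and not normalized. A read matching several genes is divided among them. The authors' table of their own comparison (DESeq2 1.36.0 fold changes and adjusted p-values) was not used.

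Expected counts were rounded, and 2054 genes with a total under 10 were removed. Over 14853 genes, edgeR 4.0.16 (R 4.3.3) was fitted with TMM scaling and the replicate number as a block. Its quasi-likelihood F test was two-sided, with Benjamini-Hochberg adjustment over all genes. CPM are counts per 1000000 of the library total multiplied by its TMM factor (0.979 to 1.02). Pair ratios use a prior count of 2. For genes whose groups did not overlap, the share of such genes over all genes tested was not computed. Standard errors and intervals were derived from the F statistic. DESeq2 1.42.0, no block, other scalings and filters, and leaving out each replicate were alternatives. The code was tested on simulated counts.

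The study's methods pair samples of one replicate. Deviations from group means correlated across 12373 genes by 0.69, 0.53 and 0.33 in same-numbered libraries, and no 2 replicates agreed within sampling noise (chi-square per degree of freedom at least 19.4). Positions, overlaps and lengths are from GENCODE on hg38. These gene models may differ from those the authors used for counting, so levels per kilobase and shared bases are approximate. Windows are the 250 bases before RefSeq starts.

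The members and gene lists were chosen with earlier results of these data known. Named genes of other lists are called genes with an absolute log2 fold change of at least 0.3, at most 6 per list by adjusted p, genes overlapping a member, and the 2 genes nearest in profile to each called member. Other genes named were chosen after their values were seen. The values of 1 listed gene are not reported here.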

Additional observations from a re-analysis of the deposited data

How the results depend on the processing

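Without the replicate block, edgeR called 0 of 8 members and 0 genes of the 6 lists around them, beside 2 and 19 with the pairing. At an unadjusted p under 0.05 there were 1 and 16 of these. In all, edgeR called 130 genes without the block (2691 at an unadjusted p under 0.05), beside 3766 with the pairing. DESeq2 called 1 member with the block and 1 without it, 2415 and 849 genes in all, and 15 and 10 genes of the lists. Leaving out a replicate gave 1 to 2 members, 9 to 18 genes of the lists and 1803 to 3439 genes in all, the lowest without replicate 1, where both of the last counts fell by over 1.5 times. HAS3 turned negative without replicate 2 (-0.055, range over left-out replicates -0.055 to 0.30), as did HYAL1 without replicate 3 (-0.040, range -0.040 to 0.12), and neither was called in any fit. Over the 8 members, 72 of 81 values under alternatives kept direction and call, 6 lost a call, 1 gained one (HYAL3 summed with NAA80) and 2 changed sign. The cause of lost calls was not tested. The other scalings moved the median of all genes to at most 0.029 on the log2 scale. For the uncalled members, changes inside their 95% intervals remain compatible with these data from 3 pairs.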

Other observations

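Over the 6 libraries, the genes whose log2 CPM followed HAS2 most closely, among 12372 genes averaging 1 CPM or more, were BRCA2 and DDX51 (Pearson r of 0.994 each), and those closest to UGDH were MCM3 (0.999) and FKBP9 (0.997). The libraries share groups and replicate numbers, so these values describe profiles over 6 points only. FKBP9 was lower in siOGT (log2 fold change -0.79, adjusted p = 1.559e-06, edgeR), as was MCM3 (-0.25, adjusted p = 0.00811), whereas BRCA2 (0.15) and DDX51 (0.12) were not called.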
